A study of Homo sapiens with 3 samples.

Results

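NR1I2 is the human gene of the pregnane X receptor (PXR), and 9 peaks of the deposited eCLIP list lay in it, out of 21031 peaks in all. The peaks of both strands were taken whose centre fell in the NR1I2 span of the RefSeq gene table, chromosome 3 from 119782101 to 119818487 (hg38), a length of 36387 bases. No measured value entered that rule, though the members and gene lists were chosen with earlier results of these data known. The cells were LS174T, a line from a human colon adenocarcinoma, carrying an HA-tagged mouse Pxr for 24 h after transfection and crosslinked with UV light of 254 nm at 400 mJ/cm2. The 3 libraries were 1 input and 2 replicates of the PXR immunoprecipitate. All 3 came from cells with the construct, and no library of cells without it was analysed here. A single list stands for the immunoprecipitate, no values per library were used here, and no value below has a spread between replicates or a test.

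PXR is a nuclear receptor that binds drugs, steroids and bile acids and, paired with a retinoid X receptor, switches on genes of drug metabolism and transport. It is known best from liver and intestine, where it controls the clearance of foreign compounds. In eCLIP, UV light fixes proteins to the RNA they touch, an antibody pulls the protein down and the attached RNA fragments are sequenced, so that reads gather where the protein, or something precipitated with it, lay on RNA. The construct was mouse Pxr and the reads were placed on the human genome, so RNA of the cells' own NR1I2 and RNA of the construct cannot be told apart in these values. Sequences and exons of the peaks were not used here, and the peaks are placed by distance instead.

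RefSeq gives NR1I2 on the plus strand with 2 start sites, at 119782101 and 609 bases downstream at 119782710. The plus strand is therefore the strand of NR1I2 RNA, and the minus strand is opposite to it. Plus-strand peaks numbered 5 and minus-strand peaks 4. The reads under each summit were recovered from the deposited fold and −log10 p, and their intervals are exact Poisson intervals at 95%, which cover counting error only. They treat reads as independent, which PCR copies are not, so they may be too narrow. A summit's reads are a depth at 1 position, so those of a single summit do not grow with the length of a gene. The deepest and the summed summit reads of a gene can still rise with its number of peaks. The fold is the authors' value and sets the summit against the mean depth of the 10 kb around it on the same strand, each with 1 read added.

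The plus-strand peaks were of unlike depth, and the 4 deep ones lay toward the downstream end of the gene. The deepest, at 119807364 to 119807602, was 239 bases wide and had 682 reads at its summit (interval 632 to 735) and a fold of 27.7. Its summit lay 25.3 kb from the first start site, and it ranked 58 by depth among the 21031 summits of the list. The next, at 119815357 to 119815611, was 255 bases wide and had 546 reads (501 to 594) and a fold of 24.8, at 33.4 kb from the start. These 2 summits lay 8084 bases apart and held 67.7% of the summed summit reads of the gene.

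Between and beside them were 2 plus-strand peaks of middle depth. The peak at 119810070 to 119810359 was 290 bases wide, with 289 reads (257 to 324) and a fold of 9.87, at 28.2 kb from the start. The peak at 119814991 to 119815201 was 211 bases wide, with 182 reads (157 to 210.4) and a fold of 7.22, at 33.0 kb. It ended 155 bases before the second deepest peak began, and their summits were 426 bases apart. None of the 4 intervals overlapped, so the order of 682, 546, 289 and 182 reads is larger than the counting error of independent reads. These summits were deeper than 98.6 to 99.7% of those in the list.

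The remaining plus-strand peak was shallow and stood far from the others. It lay at 119792188 to 119792387, 10.2 kb from the first start site, and had 11 reads (5.49 to 19.7) and a fold of 6.59. Its width of 200 bases is the narrowest in the list, taken as the caller's extended read length. It lay inside PHB1P8, a pseudogene of the prohibitin gene PHB1 that spans 941 bases, from 119791770 to 119792710, within NR1I2. No other NR1I2 peak had its centre in a further gene. PHB1P8 was the only one of 21 PHB1 pseudogenes in the table to hold a peak. PHB1 itself, on chromosome 17 and the minus strand, held 2 peaks, the deeper with 49 reads. Reads of near-identical copies can be split between them in alignment, so the gene of origin of these 11 reads is uncertain.

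**Figure D1:**
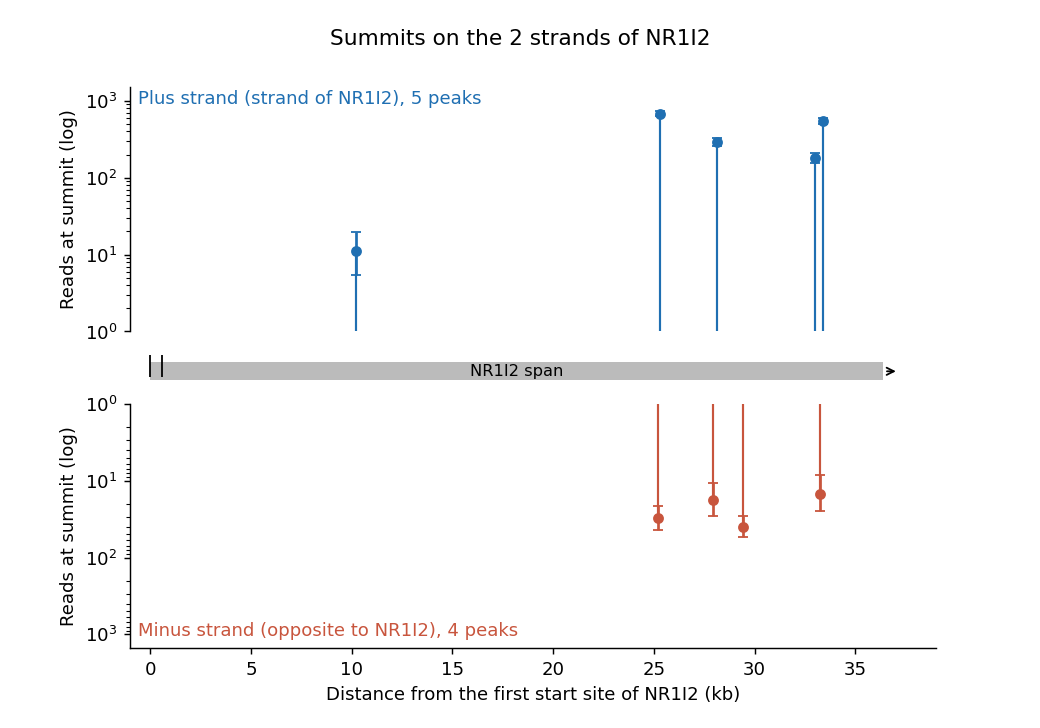
Reads at each summit of NR1I2 (log axis, error bars are exact 95% Poisson intervals) against the distance from the first start site in kb, with plus-strand peaks above and minus-strand peaks below the gene span, whose 2 ticks are the start sites. Apart from 1 plus-strand peak of 11 reads at 10.2 kb, the 8 other peaks lie between 25.2 and 33.4 kb.

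The minus-strand peaks were all shallow, and all lay in the same downstream part. Their summits had 31 reads (21.1 to 44.0) at 119807204 to 119807437, 18 reads (10.7 to 28.4) at 119809972 to 119810173, 40 reads (28.6 to 54.5) at 119811388 to 119811686 and 15 reads (8.40 to 24.7) at 119815238 to 119815437. The folds were 11.5, 6.33, 11.7 and 6.25 in the same order, and the widths 234, 202, 299 and 200 bases. The interval of the 40 reads lay above those of the 18 and the 15 reads, while the interval of the 31 reads overlapped those of the other 3. These depths were on both sides of the list's median of 21 reads, and 28.8% of summits in the list were below the shallowest of these peaks and 79.4% below the deepest. In sum the minus strand held 104 of 1814 summit reads, or 5.73% (Wilson interval 4.75 to 6.90%).

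Peaks of opposite strands overlapped at 3 places. The deepest plus-strand peak shared 74 bases with a minus-strand peak, the one of 289 reads shared 104 bases, and the one of 546 reads shared 81 bases. In all 3 pairs the minus-strand summit had the lower coordinate, by 110, 231 and 190 bases. The minus-strand summit had 4.55, 6.23 and 2.75 reads per 100 reads of its plus-strand partner. The deepest minus-strand peak overlapped no plus-strand peak, and its summit was 1289 bases from the nearest plus-strand summit. In the list on chromosomes 1 to 22, X and Y, 101 of 9980 minus-strand peaks overlapped a plus-strand peak (1.01%), in 102 pairs, of which 3 were those of NR1I2. The minus-strand summit had the lower coordinate in 66 of the 102 pairs (64.7%). The median overlap over these pairs was 123 bases, with quartiles of 68.8 and 200 bases, and the shallower summit had a median of 43.3 reads per 100 of the deeper one (quartiles 23.8 and 62.5). In the NR1I2 pairs the opposite strand was thus a smaller part of the reads than in most overlapping pairs. A pair enters only if both summits were called, so such low ratios are possible only beside a deep partner. The list's median summit had 21 reads, and pairs of matched depth were not compared.

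The depth of the 10 kb around each summit shows how the reads were spread. The sources used here do not say whether the caller also received the input library, and these counts are read as reads of the peak's own data. The reason is that in all 21031 peaks the recovered background, scaled to 10 kb, was at least as large as the reads at the summit. The 10 kb around the plus-strand summits held 1181 reads at the deepest peak, 1419 at the peak of 289 reads, 1217 at the peak of 182 reads and 1051 at the peak of 546 reads. These windows overlap, so their counts share reads. Around the summit in PHB1P8 the 10 kb held 41 plus-strand reads, and the downstream windows held 25.6 to 34.6 times as many. On the minus strand the windows held 89, 100, 125 and 78 reads, in order along the gene. For the 3 overlapping pairs this is 7.54, 7.05 and 7.42 minus-strand reads per 100 plus-strand reads. The range is narrower than at the summits, but windows that share reads do not give independent values.

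Most plus-strand reads of the downstream part lay under the 4 deep summits. At the deepest summit 57.7% of the reads of its 10 kb were under the summit, and at the summit of 546 reads 52.0% were. The share was 20.4% at the summit of 289 reads and 15.0% at that of 182 reads, whose windows also take in deeper peaks. The windows of the first and the last of these 4 peaks cover 18.1 kb and held at most 2232 reads together, while the 4 summits held 1699, which is at least 76.1%. The 4 minus-strand summits held 104 of at most 167 reads in 18.0 kb, at least 62.3%. Because a fold divides by the 10 kb around a summit, and that 10 kb holds other NR1I2 peaks, the folds of 9.87 and 7.22 belong to summits of 289 and 182 reads, while 11 reads in PHB1P8 gave 6.59 and 40 reads on the minus strand gave 11.7.

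**Figure D2:**
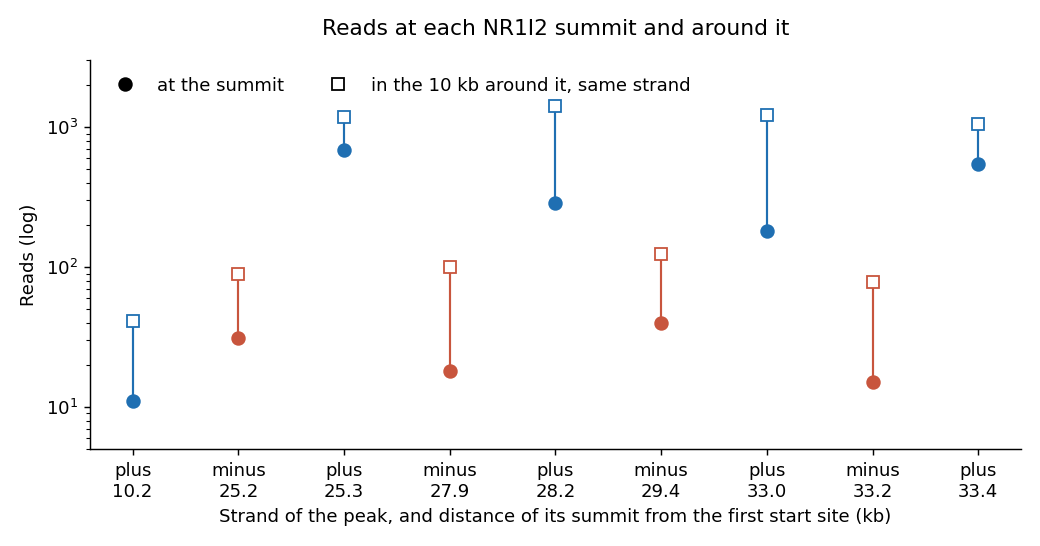
Reads at each NR1I2 summit (filled circles) and in the 10 kb around it on the same strand (open squares), on a log axis, with the 9 peaks in order along the gene and plus-strand peaks in blue, minus-strand peaks in red. The 4 downstream plus-strand windows hold 1051 to 1419 reads, against 41 around the upstream peak and 78 to 125 on the minus strand.

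The upstream part of the gene was nearly without peaks. The first 25103 bases, 69.0% of the span, held the PHB1P8 peak and no other, and the other 8 peaks lay within 8.41 kb. The last peak ended 2876 bases before the end of the span. Neither start site had a peak within the window of 250 bases before to 50 after it, and the peak nearest to the first start began 10087 bases downstream. Among 6924 coding genes that had both a peak and a start window in the table, 1465 (21.2%) had a peak on their own strand in such a window. A stretch without a peak may hold reads below the caller's threshold.

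Set against other genes, NR1I2 stood high by depth and less so by number of peaks. A peak centre lay in 8329 of 20037 coding genes (41.6%), with a median deepest summit of 22 reads and a median of 2 peaks. A summit of 200 reads or more was found in 105 coding genes (0.524%), and NR1I2 was 13 by its deepest summit, 16 by its summed summit reads and 54 by its highest fold. By number of peaks it was 118, level with the other genes that held 9, 50 in all. Per 10 kb of gene it had 2.47 peaks, against a median of 0.616. Of the 167 coding genes with 9 or more peaks, chosen as a group after the values were seen, NR1I2 had the deepest summit.

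The 3 coding genes next above NR1I2 by deepest summit, the measure of likeness used here, were FTH1, EEF2 and KRT18, and the 3 next below were ACTG1, ATP1B1 and LOC102724250. FTH1 codes for the heavy chain of the iron store ferritin and had 972 reads (912 to 1035), where the gene LOC399900 overlaps. EEF2, a translation elongation factor, had 730 reads (678 to 785). KRT18, a keratin of simple epithelia, had 721 (669 to 776), where KRT8 overlaps. Below NR1I2, the cytoplasmic actin gene ACTG1 had 578 reads (532 to 627), ATP1B1, for a sodium pump subunit, had 574 (528 to 623) and LOC102724250 had 570 (524 to 619). The intervals of EEF2 and KRT18 overlapped that of NR1I2, and those of FTH1, ACTG1, ATP1B1 and LOC102724250 did not. FTH1, EEF2, ACTG1 and ATP1B1 had all their peaks on 1 strand, 3, 7, 2 and 7 peaks. KRT18 had 5 plus-strand peaks and 1 minus-strand peak, and LOC102724250 had 2 and 1.

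Few coding genes had peaks on both strands, and fewer had several on each. Of all coding genes 469 (2.34%) had a peak on both strands, and 10 (0.0499%) had at least 3 on each, NR1I2 among them. These shares depend on the number of peaks. The 8329 coding genes with a peak had a median of 2, so most could not have 3 on each strand, and 167 had 9 or more. Of the 12 coding genes with a deeper summit than NR1I2, 4 had a single peak. Of the 8 with several, 6 had all their peaks on 1 strand, and the others were KRT8 and KRT18, whose spans overlap. NR1I2 had 8 of its 9 peaks in no other gene. The next deepest of the 10 was SLC9A3, for an intestinal sodium and proton exchanger, with 159 reads where SLC9A3-AS1 overlaps. Of its 10 peaks 1 lay in no other gene, and 91.3% of its summit reads were on the strand opposite to its own. After it came RANBP2, a nuclear pore protein gene, with 64 reads where SH3RF3 and SH3RF3-AS1 overlap and 7 of 20 peaks in no other gene. PTOV1 had 55 reads, where PTOV1-AS1 overlaps, and 4 of 8 such peaks. GPHN, for gephyrin, had 44 reads and 15 of 31, and YIF1B had 42 reads and 4 of 7.

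With the strand of the gene taken from RefSeq, which gives it for 15842 of the 20037 coding genes, opposite-strand peaks could be counted. Only peaks in no other gene were used for this. Of 5978 coding genes with such a peak 215 had one on the opposite strand (3.60%, Wilson interval 3.15 to 4.10%), and of the 73 whose deepest summit had 200 reads or more 7 did (9.59%, 4.72 to 18.5%). NR1I2 was one of these 7, with 4 peaks on each strand and 5.77% of its summit reads on the opposite strand. In the other 6, LOC124901446, DNM3, ZNF773, HMGB3, CDC42SE1 and SOX12, the opposite strand held 76.7 to 100% of the summit reads. The strand with fewer reads held a median of 26.7% over the 469 genes with both strands, and by this share NR1I2 ranked 430. A gene enters only if both strands had a called peak, so a low share is possible only where the other strand holds many reads. Genes of matched depth were not compared.

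**Figure D3:**
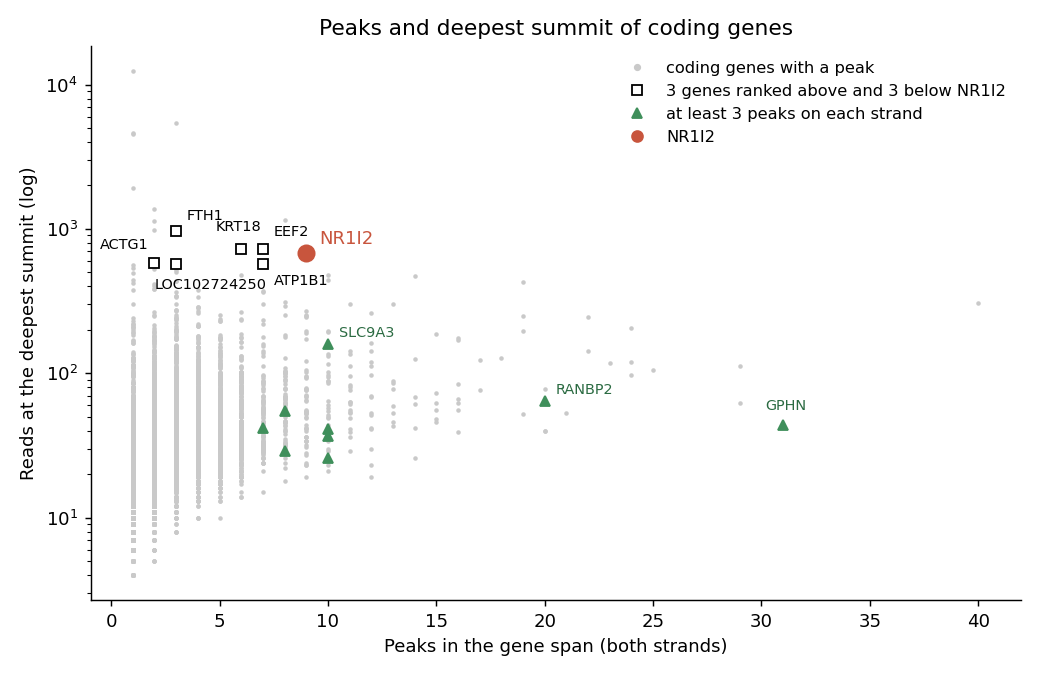
Number of peaks in the gene span against reads at the deepest summit (log axis) for 8329 coding genes with a peak (grey). NR1I2 (red circle, 9 peaks, 682 reads) lies among the genes next to it in rank (open squares), and has a deeper summit than the 9 other genes with at least 3 peaks on each strand (triangles), of which SLC9A3 is deepest at 159 reads and several have more peaks.

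The genes around NR1I2 on chromosome 3 held 6 peaks, none of comparable depth. Within 250 kb lay 13 genes besides PHB1P8, of which 2 held a peak. Both were among the 7 coding genes, beside 41.6% with a peak over all coding genes. So few genes cannot set their share apart from that. GSK3B, for a kinase of glycogen and Wnt signalling, lies on the minus strand and comes within 2834 bases of the end of NR1I2. It held 5 peaks, all on its own strand. Its deepest, at 120093803 to 120094389, had 66 reads (51.0 to 84.0) and a fold of 13.2, so that the deepest NR1I2 summit had 10.3 times as many reads. The GSK3B peak nearest to NR1I2, at 119824735 to 119825027, had 19 reads (11.4 to 29.7), which is within the range of the minus-strand peaks inside NR1I2. COX17, for a copper chaperone of cytochrome oxidase, held 1 peak of 10 reads on its own strand. No peak centre lay in the other 5 coding genes, CD80, ADPRH, PLA1A, POPDC2 and CFAP91, of which CFAP91 lies closest upstream, 15.0 kb away.

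Among nuclear receptor genes NR1I2 had the deepest summit and the most summed summit reads. Of the 48 receptors 27 had a peak (56.3%, Wilson interval 42.3 to 69.3%), beside 41.6% of all coding genes, and the 26 other than NR1I2 had a median deepest summit of 17.5 reads. NR2F6, an orphan receptor, followed with 83 reads (66.1 to 102.9), so NR1I2 had 8.22 times as many. ESRRA, the estrogen-related receptor alpha, had 56 reads (42.3 to 72.7), at a place shared with TRMT112, and RXRA, the partner of PXR on DNA, had 42 (30.3 to 56.8). The 4 deep plus-strand peaks of NR1I2 each exceeded every summit in the other receptors, and its deepest minus-strand peak, of 40 reads, exceeded the deepest summit of 23 of the 26. NR1I2 alone held 56.6% of the summed summit reads of the family, which amounted to 1392 reads without it. HNF4A, a receptor that sustains liver and gut genes, had as many peaks, 9, all on the plus strand and none deeper than 36 reads.

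Of the NR1I group, to which NR1I2 belongs, VDR, the vitamin D receptor, had 3 minus-strand peaks of up to 35 reads (24.4 to 48.7), and NR1I3, the constitutive androstane receptor and closest relative of PXR, had no peak. Peaks on both strands were found in 4 receptors, NR1I2, ESRRA, PPARA and NR2C2. Those of PPARA and NR2C2 were 1 on each strand, with up to 21 and 18 reads, and ESRRA had 3 plus-strand peaks and 1 minus-strand peak. The summit of 18 reads in NR2C2 lay at a place shared with MRPS25, whose 4 peaks were all on the minus strand.

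**Figure D4:**
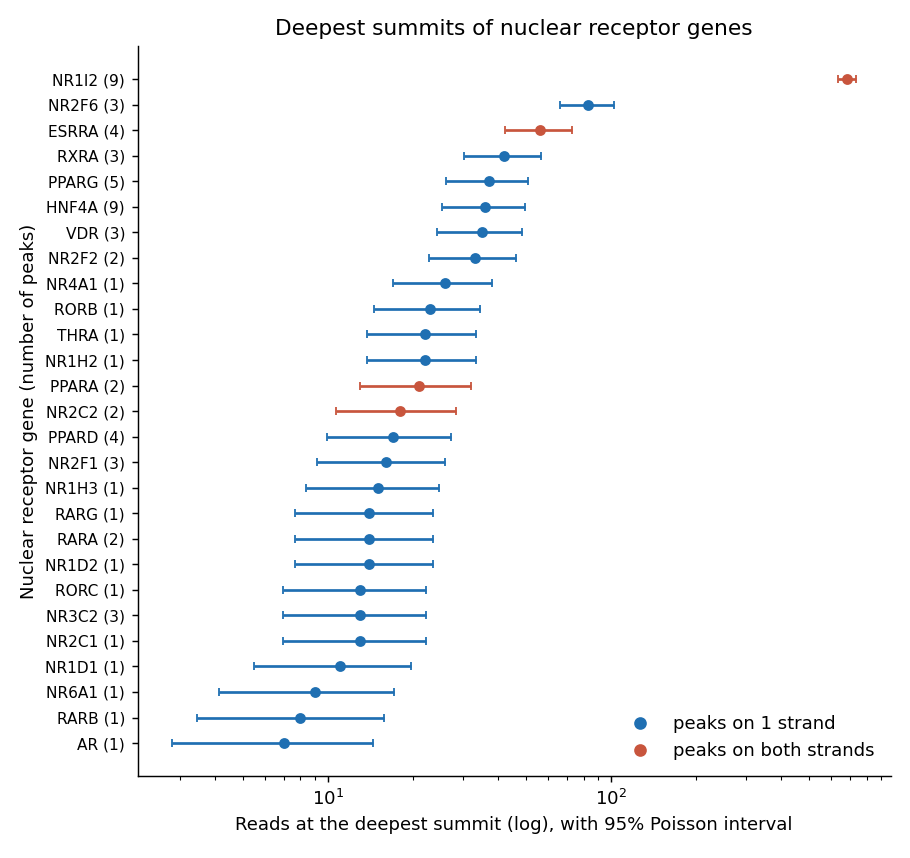
Reads at the deepest summit (log axis, exact 95% Poisson interval) of the 27 nuclear receptor genes with a peak, with the number of peaks in brackets and genes with peaks on both strands in red. NR1I2, at 682 reads, lies apart from the rest, which range from 7 to 83 reads.

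Genes that work with PXR mostly had peaks, without the depth of NR1I2. Of the 20 partners and coregulators 15 held a peak (75%, with a Wilson interval of 53.1 to 88.8%, beside 41.6% of coding genes), with a median deepest summit of 27 reads, beside 22 over all coding genes with a peak. The corepressor NCOR1 had 11 peaks and up to 63 reads (48.4 to 80.6), and PRMT1, an arginine methyltransferase that binds PXR, had up to 61. The acetyltransferase gene CREBBP had 8 peaks and up to 47 reads. Of the 12 chaperones and turnover factors of PXR 11 held one (91.7%, 64.6 to 98.5%), also with a median of 27 reads. RBCK1, a ubiquitin ligase, had 8 peaks and up to 312 reads (278 to 349). The chaperone genes HSP90AB1 and HSP90AA1 had up to 212 and 84 reads, and STUB1, the ligase CHIP, had 99 where LOC102724984 overlaps.

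Of the 10 regulators of NR1I2 transcription 8 held a peak (80.0%, Wilson interval 49.0 to 94.3%, beside 41.6% of coding genes). CEBPB, a stress-responsive factor, led with 101 reads (82.3 to 122.7), where the gene CEBPB-AS1 overlaps, and HNF4A and the intestinal factor CDX2 had up to 36 each. Target genes of PXR had one in 8 of 25 (32.0%, 17.2 to 51.6%, beside the same 41.6%). The deepest, of 61 reads, was a single summit shared by the overlapping UGT1A1, UGT1A3, UGT1A4 and UGT1A6, genes of glucuronosyltransferases. Each of these counts separately in the 8 of 25, so the share and its interval treat the same locus as several independent genes. The share of 41.6% does not take account of expression, which was not measured here.

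Markers of colon epithelium were checked against the label of the cells. Of 16 such markers 15 had a peak (93.8%, beside 41.6% of coding genes). The deepest were KRT8 with 1147 reads, KRT18 with 721 where KRT8 overlaps, KRT19 with 288 and EPCAM with 220. MUC2 followed with 182 reads, and CDX1, CDX2, VIL1 and CDH17 had up to 52, 36, 53 and 55. The marker without a peak was KRT20. None of 10 hepatocyte markers and none of 10 blood and immune markers had one (0%, Wilson interval up to 27.8% for each), and of 10 fibroblast and endothelial markers COL1A2 did, with 10 reads.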

How the data were processed

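One list of eCLIP peaks was analysed, in the hg38 build. Per the submitters' processing notes, cutadapt, BWA and MACS2 were used; their versions and settings, and which libraries entered the list, are not given in the sources used here. The deposited peak names show a separate call for each strand. As deposited, the fold is a ratio of summit to background, and the −log10 p and −log10 q are those of the caller's Poisson test. The deposited score is 10 times the −log10 q, without decimals, in all 21031 peaks. The last deposited column places the summit within the peak.

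Reads at a summit were recovered as the whole number k, with background b, that together return the deposited fold as (k + 1)/(b + 1) and the deposited p as the upper Poisson tail beyond k. This succeeded in 21028 peaks, within 0.0001 of −log10 p plus a 1e-05 part of it. For all 9 NR1I2 peaks, 50 times b was whole within 0.05, as for a count in 10 kb scaled to 200 bases. The recovery was tested on simulated data. PCR copies (9 to 18 cycles) are not independent molecules.

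Gene spans came from the RefSeq table of GRCh38.p14 (59792 genes) and strands from its start windows. Peaks were assigned by centre, on chromosomes 1 to 22, X and Y. The 9 gene lists (in full: nuclear receptors, PXR partners and coregulators, chaperones and turnover, regulators of NR1I2 transcription, PXR targets, and colon epithelial, hepatocyte, fibroblast and endothelial, and blood and immune markers) hold only genes of the table. Named were all NR1I2 peaks, the 3 coding genes ranked above and below it by deepest summit, up to 6 genes with at least 3 peaks on each strand, neighbours within 250 kb with a peak, up to 4 leading members of each list and the NR1I group; other names were added after the values were seen, and some leading list members are not reported here. The members and lists were chosen with earlier results of these data known. Peaks are not replicates, so no test was run. Alternatives changed the assignment of peaks, the threshold on −log10 q, the measure of rank and the pseudocount. Computation used Python 3.11.15, NumPy 2.4.6, pandas 2.3.3 and SciPy 1.17.1.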

Additional observations from a re-analysis of the deposited data

How the results depend on the processing

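The 9 peaks stayed 9 with the summit or any overlap in place of the centre and with −log10 q of at least 2 or 5. They became 6 at or above the list's median −log10 q of 9.16, and 8 without the peak in PHB1P8. The rank of 13 by deepest summit became 54 by fold and 32 among all genes of the table. It became 8 without peaks at most 2 bases wider than the narrowest and with over 200 reads, an alternative chosen after seeing the data. It lay between 10 and 16 under the other settings. The minus-strand share of 5.73% became 44.4% by number of peaks, 4.01% at or above the median −log10 q and 9.19% without the deepest plus-strand peak. The rank of 430 of 469 by the share of the strand with fewer reads became 121 of 139 with peaks in 1 gene only and 147 of 151 at or above the median −log10 q. The 6 peaks in neighbouring genes became 14 within 500 kb. At or above the median −log10 q the share with a peak fell to 29.2% of nuclear receptors and 50% of partners and coregulators, beside 25.9% of all coding genes. With peaks in 1 gene only it was 16.0% of PXR targets, beside 35.8%. Of all alternative values 40, the unchanged ones and the 6 and 8 peaks included, stayed within the counting interval of a share or within 1.5 times a count or rank. No paired analysis was possible because the result comes from 1 list with no values per library. Depth limits the shallow peaks: 11 reads have an interval of 5.49 to 19.7.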
